A study of Homo sapiens with 6 samples.

Results

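This is an account of 10 genes for the enzymes, inhibitors and receptor with which a cell cuts proteins at its surface and in the matrix around it: the membrane-type matrix metalloproteases MMP14 and MMP15, the ADAM proteases ADAM9, ADAM10, ADAM15 and ADAM17, the tissue inhibitors of metalloproteases TIMP1 and TIMP2, and urokinase (PLAU) with its receptor (PLAUR). They were chosen by name and found by symbol in the gene table, where they are 10 of 54644 genes listed. SKBR3 is a human breast cancer line that overexpresses HER2 (ERBB2), and CTTN codes for cortactin, an actin-binding protein of the structures through which cancer cells release matrix-degrading enzymes. RNA was sequenced from SKBR3 cells that had been stably infected with a lentivirus carrying either the empty pLVX vector (control, n = 3) or pLVX-CTTN, the vector with CTTN cDNA (CTTN, n = 3). Both groups had been selected with puromycin, so the vector, the infection and the drug are common to both. The submitters call the 3 samples of a group biological replicates but do not say whether they came from separate infections, so p-values measure the spread between these samples. Each library held between 34887079 and 41279658 fragments in genes.

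Matrix metalloproteases are zinc enzymes that cut collagens, other matrix proteins and each other's proforms. The membrane-type enzymes stay anchored at the cell surface, where MMP14, held in a complex with TIMP2, activates pro-MMP2. ADAMs are membrane-bound relatives that shed the outer parts of growth factors, receptors and adhesion proteins. Among them ADAM17 releases EGF-family ligands and TNF, and ADAM10 cuts Notch receptors and can release the outer part of HER2. TIMPs block the active site of these enzymes. Urokinase is a secreted serine protease that turns plasminogen into plasmin, and its receptor, fixed to the membrane by a lipid anchor, holds it at the leading edge of the cell. In breast cancer this system is known from its part in invasion.

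Of the CTTN libraries, 2 stood apart, and the difference of each tested member is therefore also given without them. The first principal component of log2 counts-per-million (CPM) held 67.4% of the variance. It put the controls at 20.5, 26.8 and 28.3, CTTN 2 at 6.5, CTTN 1 at -23.9 and CTTN 3 at -58.2. CTTN 1 and CTTN 3 showed a trend with transcript length far larger than in any other library. For the 1350 genes with transcripts under 1 kb, the median log2 difference from the control mean was 0.33 in CTTN 1 and 0.78 in CTTN 3, but 0.01 in CTTN 2. For the 1510 genes over 6 kb it was -0.42 in CTTN 1, -0.77 in CTTN 3 and -0.01 in CTTN 2. In the controls the same medians lay between -0.07 and 0.07, and control 1 fell with length at this smaller size. A short transcript thus read higher, and a long one lower, in both CTTN 1 and CTTN 3. What gave rise to the trend was not tested. The sum of all FPKM values (fragments-per-kilobase-per-million, which scales for transcript length) also differed, with 704018 in CTTN 1 and 852256 in CTTN 3 against 603634 to 624680 in the controls and CTTN 2. Differences between groups are therefore read from counts, and FPKM serves to order genes by level. After the trend had been seen, an offset that removes it in each library and a comparison of CTTN 2 alone with the 3 controls were added. That comparison holds 1 CTTN library, so its spread comes from the controls alone. A call in it thus says nothing of the spread between CTTN libraries.

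**Figure D1:**
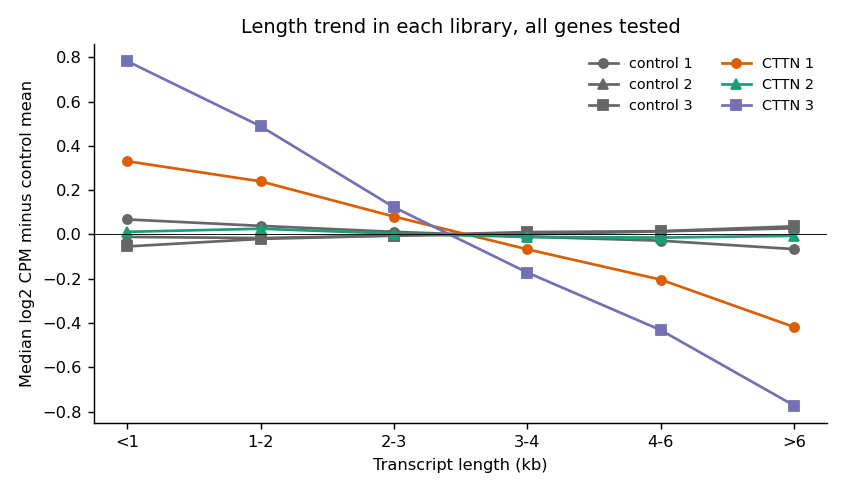
Median difference in log2 CPM from the control mean (vertical axis) for genes grouped by transcript length in kb (horizontal axis), 1 line per library. CTTN 1 and CTTN 3 fall from 0.33 and 0.78 in the shortest group to -0.42 and -0.77 in the longest, while CTTN 2 and the controls stay near 0.

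The overexpressed gene was read first, as a check of the labels. CTTN stood at 793, 1011 and 520 CPM in CTTN 1, 2 and 3 and at 299, 307 and 306 CPM in the controls. Every CTTN library lay above every control, and within the CTTN group CTTN 2 was highest and CTTN 3 lowest. The fold change was 2.55 (log2 1.35, SE 0.22, adjusted p = 0.0248, edgeR's quasi-likelihood test with Benjamini-Hochberg adjustment over all genes tested). It was 1.39 on the log2 scale with the length offset (adjusted p = 0.00151, edgeR) and 1.73 with CTTN 2 alone. The adjusted p rose to 0.122 without CTTN 1 and to 0.136, 0.154 and 0.141 without control 1, 2 or 3 (edgeR).

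Across the genome, 643 of 14409 genes tested passed an adjusted p of 0.05, which is 4.46% of them. Of these, 350 were higher in the CTTN group (2.43%) and 293 lower (2.03%). The count rested on single libraries: it was 32 without CTTN 1, 6925 of 14692 without CTTN 2, 1252 of 14647 without CTTN 3, and 29, 15 and 16 without control 1, 2 or 3. It was 2777 with the length offset (1429 higher and 1348 lower of 14409) and 2255 with CTTN 2 alone (1137 higher and 1118 lower of 15107), of which 607 and 611 were also among the 643. Of the 10 members, 8 passed the filter on low counts. MMP14 and PLAU did not. Of the 8, 2 rose in edgeR's test, PLAUR and TIMP2, where 2.43% of all genes tested did, and none fell. In bulk RNA, more cells with a transcript and more RNA per cell cannot be told apart. MMP15 passed as higher and ADAM9 as lower beside these 2 with the length offset, and ADAM9 with CTTN 2 alone. DESeq2 also called ADAM9 as lower beside PLAUR and TIMP2 (log2 -0.565, adjusted p = 0.03685), where 998 of 14409 genes were lower. The CPM of both groups did not overlap for 4 of the 8, PLAUR, TIMP2 and MMP15 being higher and ADAM9 lower in the CTTN group, where 38.8% of all genes tested showed such a separation. The median log2 difference of the 8 was 0.15, against 0.01 over all genes tested.

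In control cells the 10 genes spanned more than 3 orders of magnitude in level per length. ADAM15 led with 146.8 FPKM ± 4.99 (SD, n = 3), a level above that of 95.6% of the genes tested. TIMP2 followed with 48.9 FPKM ± 0.41, then ADAM10 with 43.9 ± 1.51, ADAM9 with 43.1 ± 1.25 and MMP15 with 40.5 ± 1.74. ADAM9 overlapped both ADAM10 and MMP15 between libraries and cannot be ordered against them, while ADAM10 lay above MMP15 without overlap. TIMP1 (15.2 ± 1.19), ADAM17 (12.6 ± 0.33) and PLAUR (6.77 ± 0.33) came next, each apart from its neighbours. MMP14 (0.13 ± 0.07) and PLAU (0.10 ± 0.06) were near the floor of the table and overlapped each other. By the mean of the CTTN group 8 of the 10 kept the place they held over all 6 libraries, and the exceptions were PLAUR and ADAM17. Single CTTN libraries differed more, with ADAM10 at 49.5 FPKM in CTTN 2 but at 12.02 FPKM, below PLAUR, in CTTN 3. PLAUR was ahead of ADAM17 in CTTN 1 (14.05 and 10.68 FPKM) and CTTN 3 (15.87 and 9.34 FPKM), the libraries with the length trend, but not in CTTN 2 (11.24 and 13.34 FPKM). By the mean of the controls the exceptions were ADAM10 and MMP15.

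**Figure D2:**
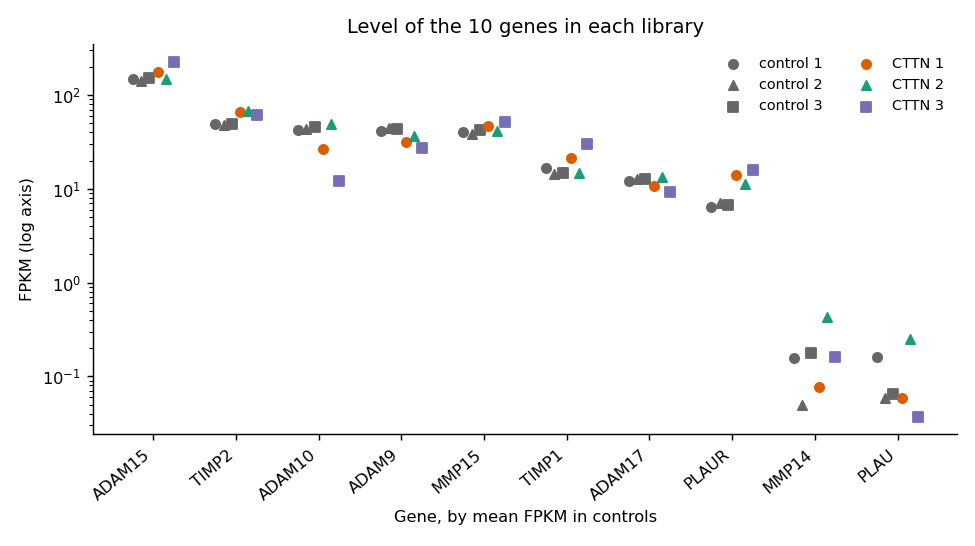
FPKM of each gene (log axis) in each of the 6 libraries, ordered by the control mean. ADAM15 is at the top with 146.8 FPKM in the controls, PLAUR stands higher in all 3 CTTN libraries, and MMP14 and PLAU lie below 1 FPKM in every library.

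The membrane-type metalloproteases were split between 1 gene that these cells express and 1 that they hardly do. MMP15 (MT2-MMP) stood at 155.1, 151.6 and 163.9 CPM in CTTN 1, 2 and 3 and at 139.2, 129.3 and 149.7 CPM in the controls. The lowest CTTN library was only slightly above the highest control, and the difference did not pass the test (log2 0.17, SE 0.09, adjusted p = 0.212, edgeR). With the length offset it did (log2 0.35, SE 0.10, adjusted p = 0.0468, edgeR), and with CTTN 2 alone the log2 difference was 0.12. MMP14 (MT1-MMP), the best known collagenase of invadopodia, had 9, 10 and 6 fragments in CTTN 1, 2 and 3 and 17, 8 and 13 in the controls. These sum to 25 and 38 fragments, and the groups overlapped. A fit with no filter on low counts gave MMP14 a log2 difference of -0.50 with an SE of 0.47 (adjusted p = 0.582, edgeR), so no difference was detectable at this depth. Its FPKM, between 0.049 and 0.43, had its highest value in CTTN 2, where short isoforms of 412 and 560 bases received 0.24 and 0.12 FPKM, so the FPKM and the count put the libraries in different orders.

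The promoters of this pair are shown as those of the membrane-type enzymes. They come from RefSeq (GRCh38.p14) as windows of 300 bases, from before to just after the annotated start, written 5′ to 3′ on the gene's own strand. Windows were found for 8 of the 10 genes; ADAM9 and TIMP2 have no entry. Capitals mark the GC box GGGCGG, on either strand, and the AP-1 motif TGANTCA, which reads alike on both strands. The motifs share no bases here.
MMP15, chr16:58025504-58025803, plus strand: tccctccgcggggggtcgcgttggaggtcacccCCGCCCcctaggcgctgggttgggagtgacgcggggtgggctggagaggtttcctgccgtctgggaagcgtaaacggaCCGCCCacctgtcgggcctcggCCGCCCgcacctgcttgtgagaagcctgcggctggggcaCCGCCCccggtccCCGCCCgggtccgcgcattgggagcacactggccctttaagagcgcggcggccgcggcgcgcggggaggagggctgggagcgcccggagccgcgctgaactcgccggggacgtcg
MMP14, chr14:22836335-22836634, plus strand: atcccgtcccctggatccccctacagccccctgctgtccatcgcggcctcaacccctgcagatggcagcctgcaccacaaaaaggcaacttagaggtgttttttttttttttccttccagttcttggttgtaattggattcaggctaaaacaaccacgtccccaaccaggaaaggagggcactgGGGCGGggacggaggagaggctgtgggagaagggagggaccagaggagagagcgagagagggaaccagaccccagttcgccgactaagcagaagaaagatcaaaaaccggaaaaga
The MMP15 window held 5 GC boxes and 39 CG pairs at 75.3% G and C, and the MMP14 window 1 GC box and 10 CG pairs at 55.0%. Over all 35116 windows of the table the median was 14 CG pairs and 58.7% G and C, and 45.0% held the GC box. Neither window held the AP-1 motif. Among the remaining windows, that of ADAM15 held 6 GC boxes, ADAM17 3, TIMP1 2, ADAM10 1 and PLAUR 0. The windows of PLAU held 0 and 3, at 48.7% and 70.0% G and C. A match is a description of the letters and not of a bound site. Whether these sequences bear on the levels was not tested.

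None of the 4 ADAM genes passed edgeR's test of 3 with 3 libraries without the length offset. ADAM9, a widely expressed sheddase with a cytoplasmic tail that binds SH3 domains, stood at 106.8, 122.3 and 73.0 CPM in CTTN 1, 2 and 3 and at 144.9, 155.8 and 145.6 CPM in the controls. All 3 CTTN libraries lay below all 3 controls, CTTN 3 furthest. The spread was 25.2 CPM (SD) in the CTTN group and 6.09 CPM in the controls. The log2 difference of -0.56 (SE 0.18) did not pass (adjusted p = 0.106, edgeR). With DESeq2 on the same libraries ADAM9 passed as lower (log2 -0.565, adjusted p = 0.03685). It passed with the length offset (log2 -0.46, SE 0.12, adjusted p = 0.0254, edgeR), and the log2 difference was -0.29 with CTTN 2 alone. ADAM9 also passed as lower without CTTN 2 (adjusted p = 0.00452, edgeR), where 3559 of 14692 genes did. Without CTTN 3 it passed too (adjusted p = 0.0312, edgeR), where 584 of 14647 genes were lower. Without CTTN 1 the adjusted p was 0.257, and without control 1, 2 or 3 it was 0.251, 0.317 and 0.281 (edgeR).

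ADAM10 stood at 108.3, 125.3 and 89.0 CPM in CTTN 1, 2 and 3 against 127.6, 128.8 and 123.2 CPM in the controls. CTTN 2 lay within the controls and the other 2 below them, and the log2 difference of -0.23 (SE 0.13) did not pass (adjusted p = 0.233, edgeR). Its transcripts are the longest among the 10 genes, with a mean of 7932 bases, and the sign turned with the length offset (log2 0.16, SE 0.08, adjusted p = 0.162, edgeR). With CTTN 2 alone it was -0.015. Without CTTN 2 the gene passed as lower (log2 -0.37, adjusted p = 0.0145, edgeR), where 3559 of 14692 genes did. Its call thus rests on the 2 libraries with the trend. ADAM17 (TACE) stood at 46.3, 52.9 and 43.2 CPM in CTTN 1, 2 and 3 against 50.7, 54.2 and 51.7 CPM in the controls. The groups overlapped (log2 -0.14, SE 0.10, adjusted p = 0.344, edgeR), and the value was 0.04 with the length offset and 0.02 with CTTN 2 alone. ADAM15, whose disintegrin domain carries an integrin-binding RGD motif, stood at 374.5, 346.4 and 388.2 CPM in CTTN 1, 2 and 3 against 339.1, 320.7 and 353.6 CPM in the controls. These ranges overlapped as well (log2 0.13, SE 0.08, adjusted p = 0.295, edgeR), and the value was 0.12 with the length offset and 0.035 with CTTN 2 alone, neither of which passed. The table joins ADAM15 with its neighbour DCST1 in 1 locus, on which 99.99% of the isoform counts carry the name ADAM15.

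Of the 2 inhibitors, TIMP2 passed and TIMP1 did not, though their log2 differences were almost equal with all libraries and no length offset. TIMP2, the partner of MMP14 at the cell surface and an inhibitor of most metalloproteases, stood at 204.9, 214.0 and 199.0 CPM in CTTN 1, 2 and 3 and at 154.7, 150.5 and 154.1 CPM in the controls. The 3 CTTN libraries were close to each other and clearly above the controls. TIMP2 rose 1.34-fold (log2 0.43, SE 0.07, adjusted p = 0.0270, edgeR). The difference was 0.54 with the length offset (SE 0.05, adjusted p = 0.000306, edgeR) and 0.48 with CTTN 2 alone. Length-adjusted levels were 218.5, 215.6 and 231.6 CPM in CTTN 1, 2 and 3 and 156.1, 150.3 and 152.7 CPM in the controls. The call was lost without CTTN 1 (adjusted p = 0.165) and without control 1, 2 or 3 (adjusted p = 0.157, 0.187 and 0.159, edgeR), while the log2 difference stayed between 0.39 and 0.45. It was also lost with library totals as the only scaling (log2 0.39, adjusted p = 0.0609, edgeR) and on FPKM (log2 0.41, adjusted p = 0.0723, limma on log2(FPKM + 1)). The gene lies at chr17:78852977-78925387 in a locus joined with CEP295NL, on which 99.95% of the isoform counts carry the name TIMP2.

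TIMP1, which inhibits many secreted metalloproteases but membrane-type ones poorly, stood at 16.0, 11.4 and 20.2 CPM in CTTN 1, 2 and 3 and at 13.1, 11.1 and 11.4 CPM in the controls. CTTN 2 lay within the controls, and only the libraries with the length trend lay above them. The log2 difference of 0.42 (SE 0.20) did not pass (adjusted p = 0.199, edgeR). TIMP1 has the shortest transcript of the 10 genes, with a mean length of 881 bases. With the length offset the difference was 0.01 (SE 0.08, adjusted p = 0.946, edgeR), and with CTTN 2 alone it was -0.06. Without CTTN 2, the library that lacks the trend, TIMP1 passed as higher (log2 0.605, adjusted p = 0.00546, edgeR), where 3366 of 14692 genes did.

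The urokinase receptor showed the largest difference among the 8 members tested. PLAUR stood at 18.4, 15.5 and 20.4 CPM in CTTN 1, 2 and 3 and at 8.03, 8.70 and 9.01 CPM in the controls. The lowest CTTN library was well above the highest control. PLAUR rose 2.11-fold (log2 1.08, SE 0.12, adjusted p = 0.00843, edgeR). Its transcripts are short, with a mean length of 1371 bases. The difference was smaller with the length offset (log2 0.78, SE 0.09, adjusted p = 0.000852, edgeR) and with CTTN 2 alone (log2 0.85). Length-adjusted levels were 15.3, 15.3 and 13.8 CPM in CTTN 1, 2 and 3 and 7.79, 8.81 and 9.17 CPM in the controls. The CTTN libraries then lay close together, still well above the controls. Without CTTN 1 the adjusted p was 0.0717, and without control 1, 2 or 3 it was 0.0667, 0.0835 and 0.0696 (edgeR), with a log2 difference of at least 0.98 in every fit that left out 1 library.

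The PLAUR promoter is shown as that of the called member with an entry in the table.
PLAUR, chr19:43670120-43670419, minus strand: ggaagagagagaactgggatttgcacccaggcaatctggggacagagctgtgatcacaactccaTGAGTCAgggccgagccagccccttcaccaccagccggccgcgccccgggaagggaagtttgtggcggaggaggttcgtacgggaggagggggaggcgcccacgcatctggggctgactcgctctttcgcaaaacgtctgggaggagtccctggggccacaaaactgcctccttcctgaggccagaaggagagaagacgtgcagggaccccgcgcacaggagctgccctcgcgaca
It held 1 AP-1 motif, 179 bases short of the annotated start, and no GC box, with 18 CG pairs at 64.0% G and C. The AP-1 motif occurred in 7.71% of all windows, and in none of the others found for the 10 genes.

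The ligand was nearly silent on both sides. PLAU had 5, 6 and 3 fragments in CTTN 1, 2 and 3 and 14, 6 and 6 in the controls, 14 and 26 fragments in sum. The groups overlapped, and a fit with no filter gave a log2 difference of -0.78 with an SE of 0.60 (adjusted p = 0.495, edgeR). The receptor was thus measured with 1910 fragments in the CTTN group and 995 in the controls, and its ligand with 14 and 26.

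**Figure D3:**
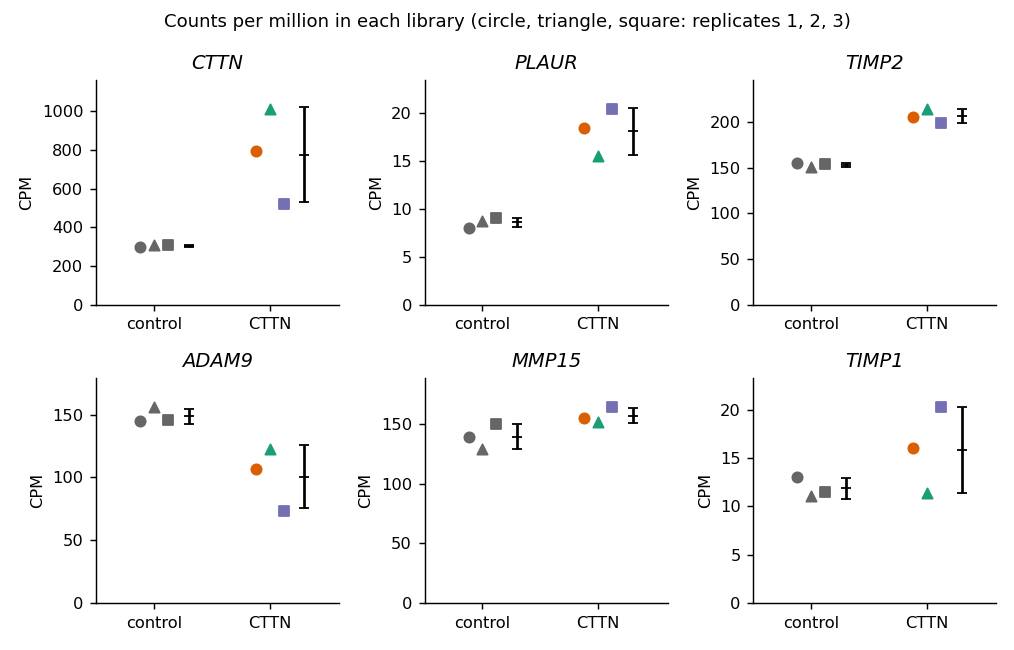
CPM in each library (vertical axes start at 0) for CTTN and 5 of the 10 genes, with the mean and SD of each group of 3 as a bar to the right. PLAUR and TIMP2 are higher in all 3 CTTN libraries, ADAM9 is lower in all 3, and TIMP1 is above the controls in CTTN 1 and CTTN 3 but not in CTTN 2.

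**Figure D4:**
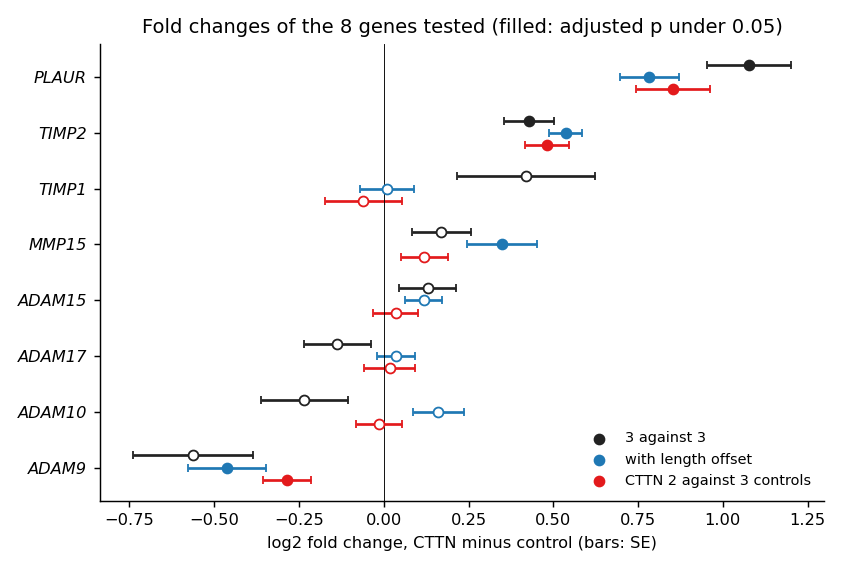
Log2 difference between CTTN and control with its SE for the 8 genes tested, in the comparison of 3 with 3 libraries, with the length offset, and with CTTN 2 alone against the 3 controls. PLAUR (1.08, 0.78 and 0.85) and TIMP2 (0.43, 0.54 and 0.48) are filled, that is past the threshold, in each. With CTTN 2 alone the spread is that of the controls only, and ADAM10, ADAM17 and TIMP1 lie near 0 there.

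Start sites and isoforms were examined for the same genes. The tables share fragments out among isoforms by estimate, and edgeR called 0 of 35799 start site groups (0%) and 0 of 58051 isoforms (0%) at an adjusted p of 0.05. At an unadjusted p under 0.05 there were 3732 and 3629, and DESeq2 called 1078 and 1174. The values are therefore given as a description. TIMP2 came almost wholly from 1 start site, with 97.5% of its FPKM and 1 protein-coding isoform of 3652 bases. That start site gave 64.0, 66.4 and 60.8 FPKM in CTTN 1, 2 and 3 and 47.9, 47.0 and 47.6 FPKM in the controls, the same separation as at the gene level.

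PLAUR was spread over 3 main start sites, with 43.0%, 29.3% and 23.6% of its FPKM. The first gave 5.41, 3.69 and 6.97 FPKM in CTTN 1, 2 and 3 and 4.67, 3.67 and 2.05 FPKM in the controls, and the groups overlapped. The next, with 1 protein-coding isoform of 1548 bases, gave 5.39, 4.73 and 4.0 FPKM against 0.13, 1.52 and 2.24 FPKM, and there every CTTN library lay above every control. The last gave 2.52, 2.5 and 4.13 FPKM against 1.5, 1.54 and 2.32 FPKM, again without overlap. The log2 differences were 0.58 (SE 0.37), 1.83 (SE 0.91) and 1.01 (SE 0.40), and whether the sites differ in their response was not tested.

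The other genes were simpler or less certain. MMP15 (99.5% of FPKM), ADAM17 (100%), TIMP1 (91.4%) and ADAM9 (88.4%) each had 1 dominant start site. The ADAM9 site gave 26.7, 35.9 and 11.6 FPKM in CTTN 1, 2 and 3 and 40.2, 42.6 and 41.8 FPKM in the controls, with CTTN 3 far below the rest. ADAM10 was divided among 3 sites. The site of its longest isoform of 11431 bases held 63.1% of the counts but 20.1% of the FPKM, and gave 7.48, 7.40 and 7.21 FPKM in CTTN 1, 2 and 3 against 7.49, 7.56 and 7.11 FPKM in the controls. These values were close to each other in all 6 libraries. A site of shorter isoforms gave 11.2, 25.1 and 4.26 FPKM against 20.3, 21.7 and 22.8 FPKM. The last site, with an isoform of 2418 bases annotated as a target of nonsense-mediated decay, gave 7.77, 16.3 and 0.51 FPKM against 13.9, 13.8 and 14.9 FPKM. The lower ADAM10 FPKM of CTTN 1 and CTTN 3 thus lay in isoforms other than the longest one. ADAM15 had 60 isoforms, 93.7% of the counts at 1 start site, and a short retained-intron isoform of 525 bases that held 20.2% of its FPKM but 2.78% of its counts. That fragment gave 35.3, 19.6 and 80.9 FPKM in CTTN 1, 2 and 3 against 25.4, 17.5 and 22 FPKM, so the high ADAM15 FPKM of CTTN 3 came in part from it.

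The genes around the members were read from lists of related proteases, inhibitors, partners and substrates. Among 21 other matrix metalloproteases, 17 had a mean under 0.5 FPKM and 7 were listed at 0 in every library. Of the 8 tested, 1 rose and none fell, where 2.43% of all genes tested rose and 2.03% fell. Their median log2 difference was 0.58 (0.49 with the length offset and 0.34 with CTTN 2 alone). MMP11 (stromelysin-3) stood at 2.29, 2.08 and 2.25 CPM in CTTN 1, 2 and 3 and at 1.39, 1.29 and 1.41 CPM in the controls (log2 0.695, SE 0.15, adjusted p = 0.0487, edgeR). It did not pass without CTTN 1, CTTN 3 or any 1 control (adjusted p between 0.0525 and 0.226, edgeR), and was at log2 0.61 with CTTN 2 alone. The call was also lost with no filter on low counts (adjusted p = 0.0612), library totals (adjusted p = 0.0587) and a replicate block (adjusted p = 0.126, edgeR). On FPKM it was lost at either pseudocount (adjusted p = 0.235 and 0.245, limma). The collagenase MMP13 had the highest level, 4.50 FPKM ± 0.22 in the controls and 4.0 ± 0.29 in the CTTN group (SD, n = 3). The gelatinase MMP9 (1.01 ± 0.11 and 1.87 ± 0.92 FPKM) and the membrane-anchored MMP17 (1.07 ± 0.28 and 1.58 ± 0.65 FPKM) were lower and overlapped each other.

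Among 14 other ADAM genes 11 were under 0.5 FPKM. Of 5 tested 1 fell and none rose (median log2 0.33, and 0.60 with the length offset), where 2.03% of all genes tested fell. ADAM12, a sheddase of heparin-binding EGF, stood at 0.14, 0.16 and 0.06 CPM in CTTN 1, 2 and 3 and at 0.42, 0.57 and 0.57 CPM in the controls, a level of 5, 6 and 2 fragments against 15, 24 and 22 (log2 -2.07, SE 0.38, adjusted p = 0.0335, edgeR). ADAM12 met the filter on low counts only through the controls, the group where it was higher, so this call carries little weight. It also passed with no filter on low counts (log2 -2.08, adjusted p = 0.0245, edgeR). The call was lost without CTTN 1 (adjusted p = 0.151) or without control 1, 2 or 3 (adjusted p = 0.107, 0.183 and 0.160, edgeR). With CTTN 2 alone the log2 difference was -1.70. The highest level was that of ADAM19, with 4.95 FPKM ± 0.15 in the controls and 5.49 ± 1.34 in the CTTN group, ahead of ADAM22 (0.78 ± 0.14 and 1.22 ± 0.72 FPKM) and ADAM11 (0.80 ± 0.15 and 0.97 ± 0.20 FPKM), which overlapped. With the length offset, where 1429 of 14409 genes rose, 4 of the 5 did, ADAM8, ADAM11, ADAM19 and ADAM22, which were named after their values had been seen. In CTTN 2 ADAM19 stood at 46.47 CPM against 32.15, 33.98 and 33.68 CPM in the controls, and ADAM22 at 8.11 against 4.86, 5.36 and 5.50 CPM. Of 19 ADAMTS genes, secreted proteases of proteoglycans and procollagens, 16 were under 0.5 FPKM and none of 6 tested passed (median log2 0.22, and 0.42 with the length offset). ADAMTS17 (1.06 FPKM ± 0.11 in the controls and 1.61 ± 0.49 in the CTTN group) and ADAMTS3 (0.68 ± 0.15 and 1.46 ± 0.48) led that family. With the length offset, where 1429 of 14409 genes rose, both did together with ADAMTS7, again named after their values had been seen. In CTTN 2 ADAMTS3 stood at 2.98 CPM against 1.84, 1.69 and 1.85 CPM in the controls, and ADAMTS17 at 5.48 against 2.83, 3.38 and 4.32 CPM. ADAMTS15 had 13 fragments in CTTN 2 and 1, 4 and 0 in the controls. It entered the comparison of CTTN 2 alone only through that library, so its value there has no weight.

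Of 7 other inhibitors, 4 were tested, 1 rose and none fell (median log2 0.61, and 0.75 with the length offset), where 2.43% of all genes tested rose. SPOCK1 (testican-1), a matrix proteoglycan, stood at 3.67, 5.56 and 2.94 CPM in CTTN 1, 2 and 3 and at 1.10, 1.26 and 1.54 CPM in the controls (log2 1.64, SE 0.27, adjusted p = 0.0256, edgeR). The difference was 1.82 with the length offset (adjusted p = 0.00068, edgeR) and 2.09 with CTTN 2 alone. The call was lost without CTTN 1 (adjusted p = 0.112) and without control 1, 2 or 3 (adjusted p = 0.136, 0.157 and 0.112, edgeR). On FPKM, where control 3 is next after CTTN 2, SPOCK1 did not pass (log2 0.36, adjusted p = 0.412, limma on log2(FPKM + 1)). RECK, a membrane-anchored inhibitor, had the highest level with 2.32 FPKM ± 0.37 in the controls and 3.02 ± 0.19 in the CTTN group. It rose with the length offset, where 1429 of 14409 genes did. In CTTN 2 RECK stood at 7.39 CPM against 5.06, 5.36 and 4.14 CPM in the controls. SPOCK2, named after its values had been seen, rose with the length offset, where 1429 of 14409 genes did.

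Of 18 genes of the plasminogen system, 10 were tested, 1 fell, none rose and 9 did not pass, where 2.03% of all genes tested fell. The median log2 difference of the 10 was 0.25, and 0.02 with the length offset. VLDLR, an endocytic receptor of the LDL receptor family that also clears protease complexes from the cell surface, stood at 3.98, 4.28 and 4.55 CPM in CTTN 1, 2 and 3 and at 12.5, 11.4 and 11.6 CPM in the controls. It fell by 1.47 on the log2 scale (SE 0.10, adjusted p = 0.00301, edgeR). The fall was 1.22 with the length offset (adjusted p = 0.000964, edgeR) and 1.46 with CTTN 2 alone. VLDLR passed in all 16 alternatives tried. MRC2 and LRP1 rose with the length offset, where 1429 of 14409 genes did, named after their values had been seen. LRP1 stood at 10.3 CPM in CTTN 2 against 6.96, 7.27 and 7.24 CPM in the controls. HABP2 had 14 fragments in CTTN 2 and 3, 0 and 2 in the controls, and it too entered the comparison of CTTN 2 alone only through that library. The plasminogen receptors ENO1 (1671 FPKM ± 24.9 in the controls and 2069 ± 335 in the CTTN group) and ANXA2 (162.5 ± 8.55 and 188.9 ± 28.5) had the highest levels. Both have processed pseudogenes elsewhere in the genome, which may make their counts less certain, and this was not tested.

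The remaining lists gave no call in edgeR's test of 3 with 3 libraries without the length offset. Of 5 proprotein convertases, among them furin, which cuts the prodomains of ADAMs and membrane-type metalloproteases, none of 5 tested passed (median log2 -0.23, 0.01 with the length offset and -0.06 with CTTN 2 alone). MBTPS1 (37.8 FPKM ± 2.16 in the controls and 33.4 ± 0.74 in the CTTN group) and PCSK7 (18.1 ± 1.02 and 15.2 ± 1.96) led them. PCSK5, named after its values had been seen, rose with the length offset, where 1429 of 14409 genes did. In CTTN 2 it stood at 3.35 CPM against 1.61, 2.41 and 1.90 CPM in the controls. Of 9 partners of ADAM10 and ADAM17, tetraspanins, iRhoms and the iRhom-binding FRMD8, none passed (median log2 0.15, 0.12 with the length offset and -0.05 with CTTN 2 alone). Their highest levels were those of TSPAN15 (173.5 FPKM ± 1.73 and 187.7 ± 31) and TSPAN14 (86.4 ± 3.26 and 70.1 ± 10.5), which both direct ADAM10. With CTTN 2 alone the iRhoms RHBDF1 and RHBDF2 rose, 2 of 9 where 1137 of 15107 genes did, named after their values had been seen, and with the length offset none of the 9 passed. Of 21 shed substrates 17 were tested and none passed (median log2 -0.01, and -0.03 with the length offset), with ERBB2 (1675 FPKM ± 30.9 and 1739 ± 82.2) and SDC1 (170.0 ± 1.04 and 164.0 ± 4.94) highest. With the length offset 6 of the 17 rose (CD44, ERBB2, IL6R, L1CAM, MET and NOTCH1) and 3 fell (BTC, EGF and SDC4), where 1429 of 14409 genes rose and 1348 fell. With CTTN 2 alone 4 of 18 rose (APP, IL6R, L1CAM and NOTCH1) and 2 fell (EGF and SDC4), where 1137 of 15107 genes rose and 1118 fell. The names of these substrates too were taken after their values had been seen. L1CAM is joined with its neighbours NAA10, ARHGAP4 and RENBP in 1 locus, with a mean transcript length of 1740 bases. The rise counted under its name therefore does not measure L1CAM alone. Of 15 partners and carriers of MMP14, none passed (median log2 0.10, and 0.05 both with the length offset and with CTTN 2 alone), with BSG (303.0 FPKM ± 7.37 and 347.5 ± 76.8) and CD63 (248.7 ± 10.9 and 309.9 ± 73.0) highest. CD151 and CD81 of that list rose with the length offset, 2 of 15 where 1429 of 14409 genes did, named after their values had been seen.

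**Figure D5:**
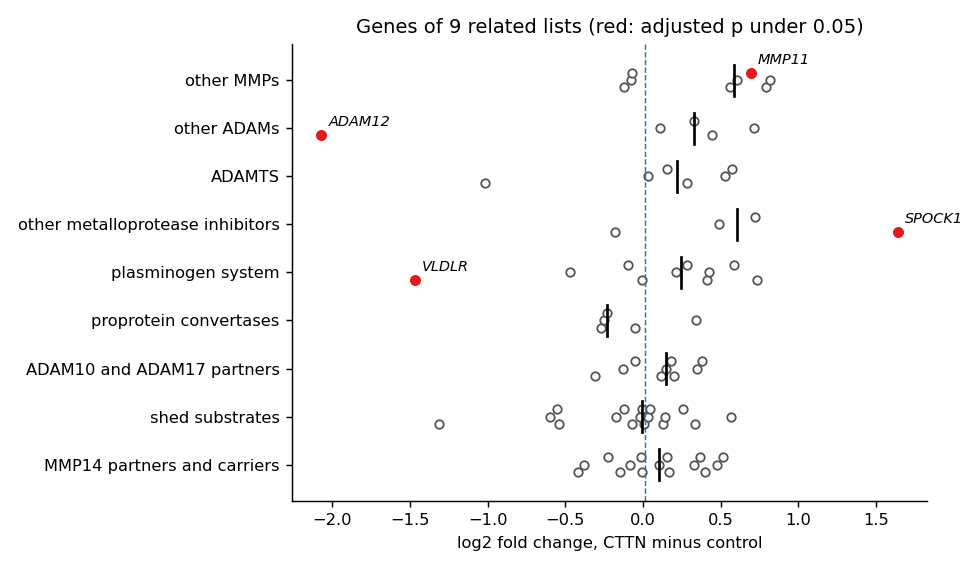
Log2 difference between CTTN and control for each tested gene of the 9 lists, 1 row per list, with the list's median as a black bar and the median of all genes tested (0.01) as a dashed line. Red points passed the threshold: MMP11 and SPOCK1 are higher and ADAM12 and VLDLR lower. ADAM12 met the filter on low counts only through the controls.

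Markers of the cell type were read in the same way. The 6 markers of HER2-positive luminal cells summed to 7697, 6249 and 9456 FPKM in CTTN 1, 2 and 3 and to 6966, 6751 and 6796 FPKM in the controls. None of the 6 passed the test, and KRT19 (1769 FPKM ± 46.9 in the controls and 2564 ± 798 in the CTTN group) and KRT8 (1849 ± 32.9 and 1954 ± 530) were the highest. With the length offset, where 1429 of 14409 genes rose and 1348 fell, ERBB2 and KRT19 rose and KRT8 and KRT18 fell. In CTTN 2 the CPM of EPCAM, KRT8 and KRT18 lay below all controls, those of ERBB2 and KRT19 above them and that of GRB7 within. These names were taken after their values had been seen. The fibroblast markers summed to between 2.94 and 4.44 FPKM in the 6 libraries, nearly all of it COL1A1, with DCN at 0 in 5 of them. COL1A1 was the only 1 of these markers tested, and it did not pass. The endothelial markers summed to 1.69, 2.17 and 1.55 FPKM in CTTN 1, 2 and 3 and to 4.12, 4.62 and 4.19 FPKM in the controls. This was almost all CDH5, which fell by 1.49 on the log2 scale (SE 0.17, adjusted p = 0.00843, edgeR), while PECAM1 and VWF stayed below 0.2 FPKM. CDH5, at log2 -1.15 with CTTN 2 alone, also passed with the length offset (log2 -1.40, adjusted p = 0.000306, edgeR). It did not pass without CTTN 1 (adjusted p = 0.0744) or without control 1, 2 or 3 (adjusted p = 0.0616, 0.0835 and 0.0696, edgeR). Of the leukocyte markers, PTPRC and CD3E were below 0.2 FPKM and CD14 below 0.7 FPKM in every library. Their sum of 605.7 to 856.0 FPKM came from CD68, whose locus the table joins with EIF4A1 and SENP3, and so it does not measure CD68 alone.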

How the data were processed

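RNA was sequenced as stranded poly(A) libraries with paired ends on a NovaSeq 6000. Per the labels, the submitters' processing notes name bcl2fastq 2.20.0, Trimmomatic, STAR and Cufflinks and the build GRCh38, while the study's methods name another trimmer and hg19; the loci in the files are those of GRCh38. The deposited estimated counts, per gene, start site group and isoform, had been divided by a library factor; multiplied back by it, 100% of gene values under 1000 were whole within 0.01, and they were rounded before testing. The deposited FPKM values were made by the authors' pipeline and used for levels. The CTTN columns match their labels. The descriptions of the control samples name columns that are shifted against those of the tables. The 3 columns named as controls in the library table were therefore used as a group, numbered from that table.

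Groups were compared with edgeR 4.0.16 in R 4.3.3 (TMM, filterByExpr, quasi-likelihood F test), with Benjamini-Hochberg adjustment over all features tested and a threshold of 0.05. The SE is the log2 difference divided by the square root of F. CPM are counts-per-million of TMM-scaled totals. DESeq2 1.42.0, limma 3.58.1 on log2(FPKM + 1) or log2(FPKM + 0.1), other scalings, no filter, a 1.5-fold rule, a replicate block and leaving out each library were alternatives. The length offset (loess of each library's log2 difference from the control mean on log2 transcript length, span 0.5) and CTTN 2 alone, assumed to vary like the controls, were chosen after seeing the data. The fit was tested on simulated data.

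The members and lists were chosen with earlier results of these data known. Named are all members, CTTN, each called gene of a list (with more than 4, the 2 with the smallest adjusted p in each direction) and its 2 highest by mean FPKM, and start sites or isoforms with at least 10% of a gene's FPKM. Promoter windows are from RefSeq (GRCh38.p14). Amino acid sequences were not used here, and 1 gene of the plasminogen list is not reported here.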

Additional observations from a re-analysis of the deposited data

How the results depend on the processing

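Of the 8 members tested, PLAUR, TIMP2, ADAM9, MMP15 and ADAM15 kept their direction in all 16 alternatives. PLAUR lay between 0.78 and 1.17 on the log2 scale and passed in 12, with adjusted p between 2.07e-10 and 0.0835. TIMP2 lay between 0.39 and 0.54 and kept its call in 7, ADAM9 between -0.73 and -0.29, passing in 5. With the length offset ADAM10 turned to 0.16 and ADAM17 to 0.036, and with CTTN 2 alone ADAM17 turned to 0.017 and TIMP1 to -0.06. These are the only reversals among the fold changes followed, and the cause was not tested.

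Genes called numbered 643 and were 2074 with DESeq2, 976 with no filter, 120 and 144 with limma at a pseudocount of 1 and 0.1, 2777 with the length offset, 2255 with CTTN 2 alone, and 15 to 6925 with 1 library left out. Members called numbered 2. They were 3 with DESeq2, ADAM9 being called beside TIMP2 and PLAUR, and 1 with library totals, either limma fit or the 1.5-fold rule. With the length offset 4 were called, and 0 to 5 with 1 library left out. CTTN was at 1.22 and 1.23 (adjusted p = 0.0631 and 0.0607) with limma, and between 1.10 and 1.57 with 1 library left out. DESeq2 called 1078 start site groups and 1174 isoforms.

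The replicate numbers share only a number: deviations of same-numbered libraries correlated across genes at 0.02, 0.08 and -0.19. With them as a replicate block 105 genes and 1 member, PLAUR, passed (TIMP2 adjusted p = 0.113), and CTTN was at 1.30 (adjusted p = 0.0588). Depth limits MMP14 and PLAU, which did not pass the filter of the main fit.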
